A study of Homo sapiens with 9 samples.

Results

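The EGF family ligand genes AREG, EREG, HBEGF, TGFA and BTC and the ERBB receptor genes EGFR, ERBB2 and ERBB3 were examined in HCT116 cells, an established human colorectal carcinoma line. These 8 genes were chosen by symbol, with earlier results of these data known. All 8 were among the 33861 genes of the deposited expression table. The table covered 9 libraries of total RNA from which ribosomal RNA had been removed, with 3 libraries in each of 3 groups. The NC group was the control, for which the labels give neither factor, and how long it was cultured is not given in the sources used here. The Activin group received activin A, a ligand of the TGF-β superfamily, at 100 ng/mL for 5 days. The Activin+HGF group received the same activin A course and then HGF, the ligand of the MET receptor, at 20 ng/mL for another 5 days. All libraries came from the single parental line, and no group received HGF alone. Whether activin A stayed in the medium during the HGF course is not given in the sources used here. In the comparison of Activin+HGF with Activin, the addition of HGF, any end of the activin A exposure and the later harvest cannot be told apart. Nor can treatment and any difference in culture time be told apart in the comparisons with NC.

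The ligands of this family are made as membrane-anchored precursors and are released from the cell surface by ADAM proteases. Released ligands bind receptor tyrosine kinases of the ERBB family. AREG and TGFA bind EGFR, whereas EREG, HBEGF and BTC also bind ERBB4. ERBB2 has no known ligand and serves as the partner of the other receptors, and ERBB3 has little kinase activity of its own and couples to PI3K through its partner. Activated receptors feed the RAS-ERK and PI3K-AKT cascades, and in colorectal epithelium AREG and EREG are known as growth factors that act back on the cells that make them. Blocking antibodies against EGFR are used in colorectal cancer.

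3 of the 5 ligand genes are neighbours on the long arm of chromosome 4. In the coordinates of the table, EREG spans chr4:74365145-74388749 and AREG spans chr4:74445136-74455005, both on the plus strand, with 56.4 kb between them. BTC spans chr4:74744759-74794523 on the minus strand, 289.8 kb beyond AREG. The other members lie apart, with TGFA at chr2:70447284-70553826 (minus strand), HBEGF at chr5:140332843-140346603 (minus), EGFR at chr7:55019017-55211628 (plus), ERBB2 at chr17:39687914-39730426 (plus) and ERBB3 at chr12:56076799-56103505 (plus). The promoter windows of the 3 chromosome 4 ligands are shown because these genes lie close together but differed, as given below. EREG and BTC were lower in Activin+HGF than in Activin, while AREG was not called in that comparison. Each window holds the 250 bases before the RefSeq start on GRCh38.p14, printed on the strand of the gene from 5′ to 3′. Capitals mark matches on either strand to 4 searched motifs, namely the AP-1 motif TGANTCA, the cyclic AMP response element (CRE) TGACGTCA, the core of the TATA box TATAAA, and the GC box GGGCGG. The windows lie at chr4:74364895-74365144 for EREG, chr4:74444886-74445135 for AREG and chr4:74794524-74794773 for BTC.
EREG: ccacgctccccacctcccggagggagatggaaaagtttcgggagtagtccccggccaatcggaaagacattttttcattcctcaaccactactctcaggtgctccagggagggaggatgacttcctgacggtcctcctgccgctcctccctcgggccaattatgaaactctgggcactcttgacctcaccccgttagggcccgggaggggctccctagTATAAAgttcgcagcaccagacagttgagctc
AREG: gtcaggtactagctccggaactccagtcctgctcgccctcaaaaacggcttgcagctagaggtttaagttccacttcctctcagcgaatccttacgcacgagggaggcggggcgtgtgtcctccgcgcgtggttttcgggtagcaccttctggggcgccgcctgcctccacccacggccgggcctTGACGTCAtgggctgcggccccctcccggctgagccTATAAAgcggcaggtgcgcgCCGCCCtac
BTC: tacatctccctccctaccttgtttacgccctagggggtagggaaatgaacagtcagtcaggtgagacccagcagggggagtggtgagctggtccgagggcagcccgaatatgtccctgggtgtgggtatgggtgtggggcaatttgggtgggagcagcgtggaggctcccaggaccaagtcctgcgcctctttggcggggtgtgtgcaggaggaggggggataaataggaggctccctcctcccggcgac

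The AREG window held a CRE whose first base lies 65 bases before the start, a TATA match at 29 bases and a GC box at 9 bases. Among 35116 RefSeq promoter windows of the same length, 1.65% held the CRE letters, 10.7% the TATA letters and 42.6% the GC box letters. The EREG window held 1 of the 4 motifs, a TATA match at 32 bases before the start, and the BTC window held none of them. The AP-1 letters were in 6.57% of all windows and in none of these 3. G and C made up 65.2% of the AREG window, 58% of the EREG window and 62% of the BTC window, against a median of 58% over all windows. A match here describes letters in the window, and the data hold no measurement of binding. Of the members outside chromosome 4, TGFA, HBEGF, EGFR and ERBB2 also had windows in the RefSeq table, and HBEGF had 5 GC boxes, the most in any member window.

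Total counts per library ran from 57453977 to 77016167, so 3 counts correspond to between 0.0373 and 0.0551 CPM (the gene's counts relative to the scaled total of its library). Replicate log CPM values correlated at 0.965 to 0.97 in the NC group. The 2nd Activin library (0.941 with each of its replicates) and the 1st Activin+HGF library (0.94 and 0.946) stood apart from the others of their groups. Where a member passes or misses the adjusted p only with 1 of these libraries, the value without it is given. The sources used here do not say whether replicates were separate cultures, so p-values measure the spread between these libraries, which may be technical. The 5 epithelial markers EPCAM, CDH1, KRT8, KRT18 and KRT19 were all expressed, with summed levels of 551.05 to 869.6 FPKM (fragments counted per unit of transcript length and of sequencing depth). Of 5 immune markers, CD68 alone reached 1 FPKM, and PTPRC and CD3E, which mark leukocytes and T cells, were at 0.05 FPKM or less in every library. LYZ ran from 0.05 to 0.14 FPKM in NC, 0.48 to 0.88 in Activin and 0.18 to 0.54 in Activin+HGF. Of the 3 immune markers tested, 2 were called higher and none lower in each treated group against NC. This is 66.7%, against 11.4% of all genes in Activin and 21.5% in Activin+HGF. The sum of the list was 0.69 to 1.47 FPKM in NC, 4.96 to 9.37 in Activin and 6.04 to 7.63 in Activin+HGF. The part of this difference in the ligand results was not tested. Fibroblast markers summed to 2.62 to 2.69 FPKM in NC, 4.58 to 6.04 in Activin and 2.88 to 3.65 in Activin+HGF, with COL1A1 called higher in Activin than in NC and alone in reaching 1 FPKM, COL3A1 called lower and DCN at 0.01 FPKM or less. The part of this difference in the results was not tested either. The hepatocyte and endothelial markers stayed under 1 FPKM in sum in every library. Of the 3 hepatocyte markers tested, 2 were called higher in Activin+HGF than in NC (66.7%, against 21.5% of all genes).

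Levels across the family were very unequal. The FPKM scale, which divides by gene length, is used here to compare genes, and AREG was by far the most abundant member, at 261 ± 9.18 FPKM in NC, 900.3 ± 65.1 in Activin and 754 ± 64.7 in Activin+HGF (SD, n = 3 each). By mean FPKM, AREG stood in place 99 of 33861 genes in NC, 35 in Activin and 47 in Activin+HGF. EREG followed in place 315, 157 and 680. In NC the order of mean FPKM was AREG, EREG, TGFA, EGFR, ERBB2, ERBB3, HBEGF and BTC, and the libraries of EGFR and ERBB2, and of ERBB3 and HBEGF, overlapped. In Activin the order was AREG, EREG, TGFA, EGFR, HBEGF, ERBB2, BTC and ERBB3, with EGFR overlapping HBEGF, HBEGF overlapping ERBB2, and BTC overlapping ERBB3. In Activin+HGF HBEGF took the place after TGFA, with overlapping libraries, and BTC was the lowest member.

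The summed level of the 5 ligands was 367 ± 22.1 FPKM in NC, 1126 ± 39.3 in Activin and 839 ± 70.7 in Activin+HGF, while the 3 receptors summed to 18.8 ± 0.846, 22.6 ± 3.15 and 13.7 ± 4.06 FPKM. AREG alone made up 71.1% ± 1.995 of the ligand sum in NC, 79.9% ± 2.94 in Activin and 89.9% ± 0.143 in Activin+HGF. The share of EREG went the other way, from 24.2% ± 2.24 through 16.3% ± 2.97 to 5.60% ± 0.985. TGFA held 2.47% to 3.62% of the sum in every library. BTC held under 1% in all 9 libraries, and so did HBEGF in the NC and Activin libraries, whereas HBEGF reached 3.07% in the 1st Activin+HGF library.

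**Figure D1:**
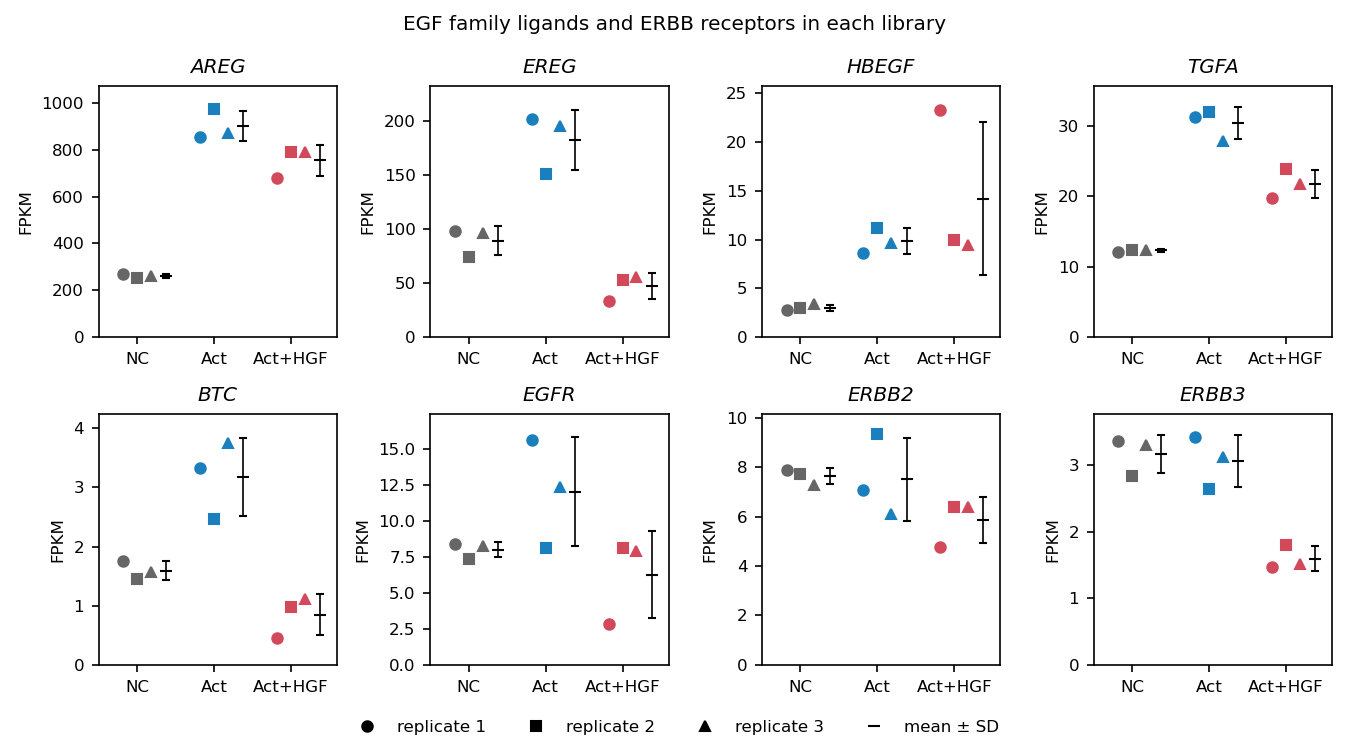
FPKM (vertical axes, from 0, scaled for each gene) of the 8 members in the 9 libraries, with replicates as symbols and the mean ± SD of 3 libraries beside them. AREG, TGFA and HBEGF libraries of both treated groups lie above all NC libraries, EREG and BTC are highest in Activin and lowest in Activin+HGF, and the 1st Activin+HGF library is high for HBEGF and low for EGFR.

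A gene was called changed when edgeR gave it a Benjamini-Hochberg adjusted p under 0.05 over the 20988 genes tested and at least a 2-fold difference. All 8 members had enough counts to be tested. After activin A, AREG, HBEGF and TGFA rose and no member fell, so 3 of 8 members were called, all higher, against 11.4% of all tested genes called, 6.78% higher and 4.62% lower. With EREG, 4 of 8 members passed the adjusted p without the minimum fold, against 18% of all genes. The median log2 fold change was 0.92 over the members and 0.02 over all tested genes. In Activin+HGF, EREG and BTC were called lower than in Activin. These were 2 of 8 members, against 8.09% of all genes called, 3.87% higher and 4.21% lower. The median log2 fold change was -0.33 over the members and -0.04 over all genes. With ERBB3, which dropped out when any 1 of 8 libraries was left out, 3 of 8 passed the adjusted p alone, against 12.9% of all genes. Relative to NC, AREG, HBEGF and TGFA were called higher in Activin+HGF and no member was called lower, 3 of 8 against 21.5% of all genes called, 11.3% higher and 10.2% lower. With EREG and ERBB3, both lower, 5 of 8 passed the adjusted p alone, against 31.4% of all genes, and EREG dropped out of these without any 1 of 3 single libraries, 1 of them the outlying Activin+HGF library. The median log2 fold change was -0.09 over the members and -0.03 over all genes. The 3 comparisons share libraries in pairs, so their values are given side by side and not as independent evidence. The study sequenced bulk RNA, in which fewer cells expressing a gene and less RNA per cell cannot be told apart.

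Groups can also be compared by whether their libraries overlap on the CPM scale, that is, counts divided by library totals after TMM scaling. Between Activin and NC, 6 of 8 members had every Activin library above every NC library (all 5 ligands and EGFR), and 42.2% of all tested genes had groups that did not overlap, 20.9% with Activin higher and 21.3% with it lower. Between Activin+HGF and Activin, EREG, BTC and ERBB3 were separated, all with Activin+HGF lower, against 32.7% of all genes in either direction, 17.2% higher and 15.6% lower. Between Activin+HGF and NC, AREG, HBEGF and TGFA were above and EREG, BTC and ERBB3 below, 6 of 8 against 53.8% of all genes, 25.7% higher and 28.1% lower. For 3 libraries against 3, an exact permutation test on any single gene cannot go below p = 0.1.

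**Figure D2:**
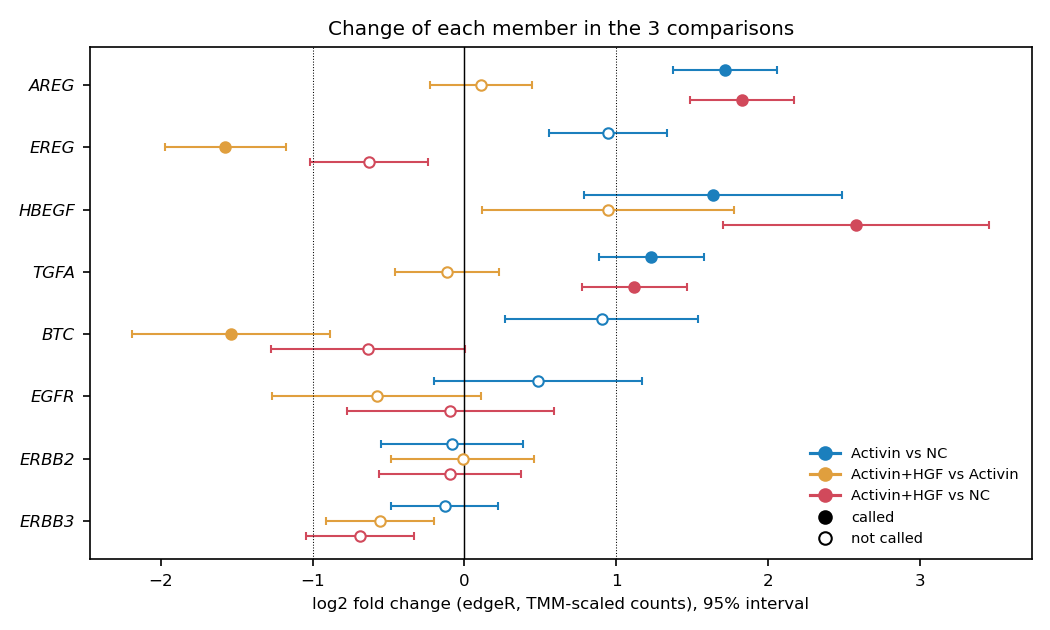
Log2 fold change (horizontal axis) of each member in the 3 comparisons, as edgeR estimates on TMM-scaled counts with 95% intervals, where filled points were called and dotted lines mark a 2-fold difference. The receptors lie closer to 0 than AREG, HBEGF and TGFA do in both comparisons with NC, and EREG and BTC change side between them; AREG in Activin+HGF against Activin turns negative when library totals replace TMM.

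The scaling of the libraries matters for the comparisons that include Activin+HGF. TMM factors were 0.7829 to 0.9257 in Activin+HGF and 0.9883 to 1.17 elsewhere. With library totals in place of TMM, log2 fold changes shifted by 0.07 in Activin against NC, by -0.35 in Activin+HGF against Activin and by -0.27 in Activin+HGF against NC. FPKM values follow library totals, so for genes with small changes the FPKM and CPM orders of the groups can differ, and where they do both are given.

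AREG encodes amphiregulin, a ligand of EGFR. Its counts were 29441, 31594 and 38628 in the NC libraries, 102908, 116904 and 108388 in Activin, and 92710, 114656 and 109838 in Activin+HGF. The corresponding levels were 269.37, 251.12 and 261.93 FPKM in NC, 855.75, 974.97 and 870.18 in Activin, and 679.71, 791.61 and 792.1 in Activin+HGF. Every treated library was above the highest NC library, and the NC libraries differed little among themselves, with a coefficient of variation of 3.52%. AREG rose 3.29-fold in Activin against NC (log2 fold change 1.72, SE 0.15, edgeR adjusted p = 0.000108) and 3.55-fold in Activin+HGF against NC (log2 1.83, SE 0.16, adjusted p = 4.83e-05). These calls held under each of the 19 alternative settings, with log2 fold changes of 1.57 to 1.83 and 1.53 to 1.84. Between Activin+HGF and Activin the difference was small and its sign depended on scaling, at 0.11 with TMM (95% interval -0.22 to 0.44, adjusted p = 0.671) and -0.22 with library totals, and on FPKM the 3 Activin+HGF libraries lay below the 3 Activin libraries.

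EREG encodes epiregulin, a ligand of EGFR and ERBB4. It measured 97.98, 74.08 and 95.9 FPKM in NC, 201.9, 150.83 and 194.87 in Activin, and 33.89, 53.04 and 55.43 in Activin+HGF. No 2 groups overlapped, with Activin the highest and Activin+HGF the lowest. In Activin, EREG was 1.93-fold above NC (log2 fold change 0.95, SE 0.18, edgeR adjusted p = 0.00512), which passed the adjusted p but lay under the 2-fold minimum. It passed that minimum with library totals (1.03), with limma on FPKM (1.03 and 1.02 at the 2 pseudocounts) and without the 1st NC library (1.05). EREG then fell 2.98-fold in Activin+HGF relative to Activin (log2 -1.57, SE 0.18, adjusted p = 0.0021), a call kept under all 19 settings with values from -1.96 to -1.44. The final level was 1.55-fold below NC (log2 -0.63, SE 0.18, adjusted p = 0.0211), again under the 2-fold minimum, and it missed the adjusted p without the 1st Activin+HGF library (0.0508) and without the 1st or 3rd NC library (0.0642 and 0.0866).

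BTC encodes betacellulin, which binds EGFR and ERBB4. It was a low gene, with 312, 295 and 375 counts in NC, 645, 477 and 756 in Activin, and 102, 230 and 249 in Activin+HGF, or 1.76, 1.45 and 1.57, then 3.32, 2.46 and 3.75, then 0.46, 0.98 and 1.11 FPKM. Again Activin was highest and Activin+HGF lowest, with no overlap between groups. The difference between Activin and NC was 1.87-fold but missed the threshold (log2 0.90, 95% interval 0.27 to 1.54, edgeR adjusted p = 0.0539), whereas the adjusted p was 0.0125 when the 1st Activin+HGF library was left out of the fit. BTC fell 2.90-fold between Activin and Activin+HGF (log2 -1.54, SE 0.29, adjusted p = 0.0115), and without the 1st Activin+HGF library, the lowest of the 9, the value was -1.28 and was still called. Against NC, Activin+HGF was 1.55-fold lower (log2 -0.63, interval -1.27 to 0.01, adjusted p = 0.121).

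TGFA encodes TGF-α, an EGFR ligand that is unrelated to the TGF-β superfamily of activin in spite of its name. Its levels were 12.15, 12.39 and 12.42 FPKM in NC, 31.35, 32.03 and 27.84 in Activin, and 19.79, 23.85 and 21.72 in Activin+HGF. NC was below both treated groups, and on FPKM Activin+HGF lay between the other groups without overlap. TGFA rose 2.35-fold in Activin against NC (log2 fold change 1.23, SE 0.16, edgeR adjusted p = 0.00065). In Activin+HGF it was 2.17-fold above NC (log2 1.12, SE 0.16, adjusted p = 0.000626), a call lost when library totals (0.85) or limma on FPKM (0.81 and 0.77) were used, since the fold then fell under 2. On TMM-scaled CPM the Activin libraries (138 to 184) and Activin+HGF libraries (141 to 150.4) overlapped, with a log2 difference of -0.11 (95% interval -0.45 to 0.23, adjusted p = 0.669).

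HBEGF encodes heparin-binding EGF-like growth factor, which binds EGFR and ERBB4. It gave 2.75, 2.97 and 3.36 FPKM in NC, 8.66, 11.24 and 9.66 in Activin, and 23.26, 9.94 and 9.42 in Activin+HGF. NC libraries were below all others, and the 1st Activin+HGF library stood far above its 2 replicates, which lay among the Activin libraries. HBEGF rose 3.11-fold in Activin against NC (log2 fold change 1.64, SE 0.38, edgeR adjusted p = 0.0149), a call that was lost without the 1st NC library (log2 1.60, adjusted p = 0.0573). It rose 5.98-fold in Activin+HGF against NC (log2 2.58, SE 0.40, adjusted p = 0.00102), and without the 1st Activin+HGF library the log2 value was 1.9 and still called (adjusted p = 0.000429). The difference between Activin+HGF and Activin was 0.94 (95% interval 0.11 to 1.78, adjusted p = 0.121) and came to 0.27 without that library (adjusted p = 0.468).

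Ratios of members within each library do not depend on how libraries are scaled to each other, and they were compared after the values of the members had been seen. The FPKM of EREG divided by that of AREG was 0.364, 0.295 and 0.366 in NC, 0.236, 0.155 and 0.224 in Activin, and 0.0499, 0.067 and 0.07 in Activin+HGF. The groups did not overlap, with NC the highest and Activin+HGF the lowest. On the log2 scale the count ratio changed by -0.75 from NC to Activin, by -1.71 from Activin to Activin+HGF and by -2.46 from NC to Activin+HGF, the last a 5.52-fold change. BTC against AREG moved by similar amounts, by -0.81, -1.72 and -2.53. BTC against EREG overlapped between all groups, with log2 differences of -0.05, -0.01 and -0.06, and ranged over the 9 libraries from 0.0136 to 0.02 on FPKM.

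TGFA against AREG was also lower in Activin (log2 -0.48) and in Activin+HGF (-0.71) than in NC, without overlap between the groups. HBEGF against AREG overlapped between Activin and NC (log2 -0.09). Its value of 0.66 for Activin+HGF against Activin came without overlap, but with an SD of 0.858 over the Activin+HGF libraries. In the 2-sided exact permutation tests of the 24 ratio comparisons, p = 0.1 was the smallest possible value. The ratios of EREG, BTC and TGFA to AREG, and of ADAM17 to ADAM10 (given below), reached it in each comparison. HBEGF to AREG reached it in Activin+HGF against Activin, and ERBB3 to ERBB2 in Activin+HGF against NC. It corresponded to a Benjamini-Hochberg adjusted p of 0.171. With FPKM in place of counts, or with any 1 library of the groups compared left out, the EREG to AREG change from Activin to Activin+HGF stayed between -1.9 and -1.56, and that of BTC to EREG between -0.12 and 0.16.

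**Figure D3:**
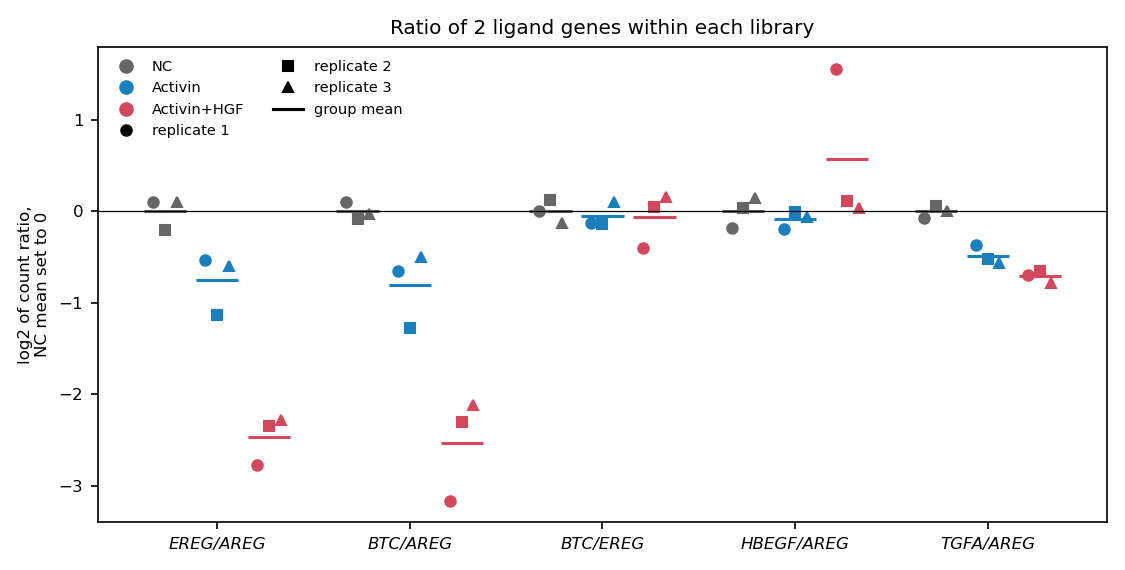
Log2 ratio of the counts of 2 ligand genes within each library (vertical axis), with the mean of the NC libraries set to 0, colours for groups, symbols for replicates and bars for group means. EREG and BTC against AREG are lower in Activin and lowest in Activin+HGF, BTC against EREG stays near 0 in all groups, and HBEGF against AREG is high in the 1st Activin+HGF library.

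The genes around the chromosome 4 ligands were compared as well. Within 1000 kb of the AREG start the table held 20 genes, of which 14 were tested. Of these, 6 were called higher and none lower in Activin against NC, where 6.78% of all genes were higher and 4.62% lower. In Activin+HGF against Activin, 6 were lower and none higher, where 4.21% of all genes were lower and 3.87% higher. In Activin+HGF against NC, 6 were higher and none lower, where 11.3% of all genes were higher and 10.2% lower. The counts against NC include AREG itself, and all 3 counts include the same chemokine genes, given next. Which neighbours to name was decided with these results in view. The 6 that were lower in Activin+HGF than in Activin were EREG, BTC and the chemokine genes CXCL8, CXCL1, CXCL2 and CXCL3, whose products attract neutrophils. AREG, lying between EREG and BTC, did not pass the test. The chemokine genes started from low means in NC, at 0.17 (CXCL8), 0.48 (CXCL1), 0.27 (CXCL2) and 0.29 (CXCL3) FPKM. In Activin the means were 26.03, 12.83, 2.97 and 2.03 FPKM in the same order. These genes were higher in Activin than in NC by log2 fold changes of 7.07, 4.65, 3.31 and 2.74. They differed from Activin by -1.73, -3.18, -1.79 and -1.45 in Activin+HGF, and stood above NC there by 5.34, 1.46, 1.52 and 1.28. EREG and BTC, unlike these genes, were below NC in every Activin+HGF library, as were 28.1% of all tested genes on CPM. Neither was called against NC (edgeR adjusted p = 0.0211 for EREG, under 2-fold, and 0.121 for BTC). EPGN, another EGF family gene with its start at -136.7 kb from that of AREG, averaged at most 0.11 FPKM in any group and was not called.

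**Figure D4:**
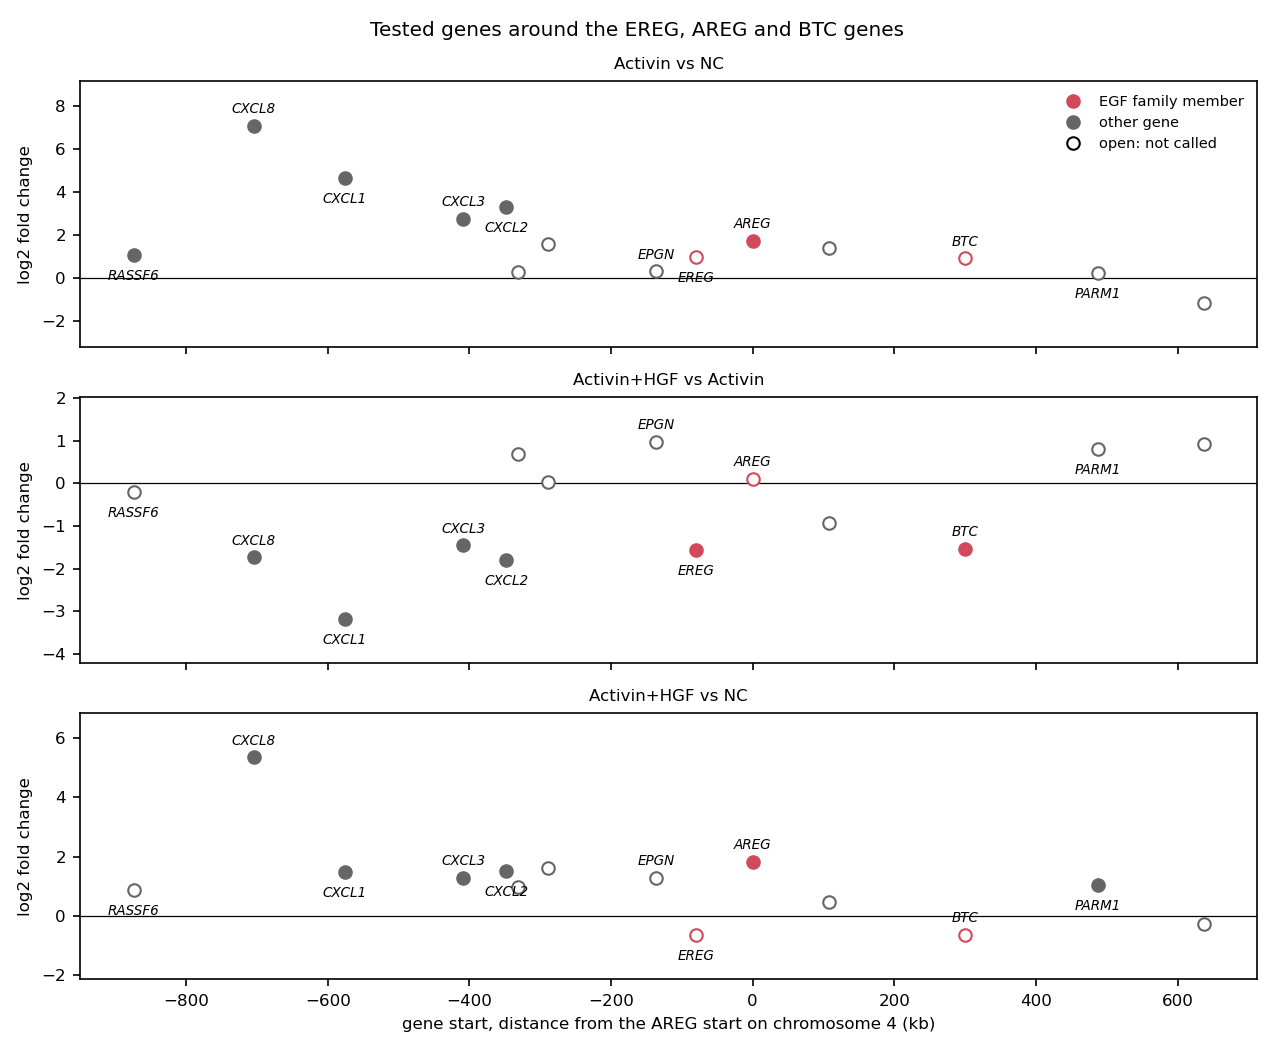
Log2 fold change (vertical axes) of the 14 tested genes within 1000 kb of the AREG start, by the distance of their start from it in kb (horizontal axis), in the 3 comparisons, with members in red, other genes in grey and genes that were not called as open circles. EREG, BTC and the CXCL genes lie below 0 in Activin+HGF against Activin, where AREG lies near 0 with TMM scaling and at -0.22 with library totals.

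Among the receptors, EGFR measured 8.4, 7.39 and 8.28 FPKM in NC, 15.65, 8.12 and 12.37 in Activin, and 2.82, 8.13 and 7.89 in Activin+HGF. The spread within the treated groups was wide, with the 2nd Activin library within the NC range and the 1st Activin+HGF library below all others. On TMM-scaled CPM the Activin libraries (119 to 195) lay above those of NC (105 to 116), with the 2nd Activin library the lowest of its group. EGFR was not called in any comparison, with log2 differences of 0.49 in Activin against NC (95% interval -0.20 to 1.17, edgeR adjusted p = 0.326), -0.58 in Activin+HGF against Activin (-1.26 to 0.11, adjusted p = 0.238) and -0.09 in Activin+HGF against NC (-0.78 to 0.59, adjusted p = 0.849). The intervals of Activin against NC and of Activin+HGF against Activin reach past a 2-fold change. Without the 1st Activin+HGF library the difference from Activin was -0.26 and that from NC turned positive, at 0.22.

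ERBB2 measured 7.89, 7.73 and 7.28 FPKM in NC, 7.08, 9.36 and 6.09 in Activin, and 4.77, 6.41 and 6.39 in Activin+HGF. On FPKM the Activin+HGF libraries lay below those of NC, whereas on TMM-scaled CPM they overlapped (75.3 to 87 against 84 to 91). The log2 differences were -0.08 in Activin against NC (95% interval -0.55 to 0.39, edgeR adjusted p = 0.845), -0.01 in Activin+HGF against Activin (-0.48 to 0.46, adjusted p = 0.976) and -0.09 in Activin+HGF against NC (-0.56 to 0.38, adjusted p = 0.773), so each interval excluded a 2-fold change, although the sign of the first and second turned when single libraries were left out. ERBB2 overlaps MIEN1 and PGAP3 on the other strand, which had up to 56.97% and 17.7% of its counts in a library, and the sources used here do not say whether counting used strand, so its level is uncertain.

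ERBB3 measured 3.36, 2.84 and 3.3 FPKM in NC, 3.43, 2.65 and 3.12 in Activin, and 1.47, 1.81 and 1.51 in Activin+HGF. The NC and Activin libraries overlapped, with a log2 difference of -0.13 (95% interval -0.48 to 0.22, edgeR adjusted p = 0.639), and the Activin+HGF libraries were below both. The difference between Activin+HGF and Activin was -0.56 (SE 0.16, adjusted p = 0.0459) and that between Activin+HGF and NC -0.69 (SE 0.16, adjusted p = 0.00902), both past the adjusted p but under the 2-fold minimum, at 1.47-fold and 1.61-fold lower. The first of these lay close to the threshold, with adjusted p between 0.00542 and 0.129 over the alternatives. It missed the adjusted p without any 1 library other than the 2nd Activin library (0.0553 to 0.129, and 0.0674 without the 1st Activin+HGF library). Relative to ERBB2, ERBB3 was lower in Activin+HGF than in NC without overlap (log2 -0.59, exact permutation p = 0.1), and the overlap of ERBB2 with other genes applies to this ratio too.

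The remaining family genes had low levels. Of EGF, EPGN, NRG1, NRG2, NRG4 and ERBB4, NRG2 reached 0.64 FPKM in 1 NC library, and the other 5 stayed at or below 0.32 FPKM in every library. ERBB4, the other receptor of EREG, HBEGF and BTC, was therefore scarcely expressed in any group. NRG2, which encodes a ligand of ERBB3 and ERBB4, gave 197, 185 and 230 counts in NC, 95, 51 and 86 in Activin and 64, 56 and 70 in Activin+HGF. It fell in Activin against NC (log2 fold change -1.44, SE 0.33, edgeR adjusted p = 0.0132) and was lower in Activin+HGF than in NC (-1.52, adjusted p = 0.00638), with no overlap between NC and the treated libraries. The call in Activin against NC was lost without any 1 of the NC libraries (edgeR adjusted p = 0.0513 to 0.0753). NRG3 was not among the genes of the deposited expression table under that symbol.

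Release of the ligands is carried out mainly by ADAM17 and ADAM10, and the inactive rhomboid proteins RHBDF1 and RHBDF2 carry ADAM17 to the cell surface. Of 9 genes in the shedding list, 7 were tested, and 2 were called higher and none lower in Activin against NC, none in Activin+HGF against Activin, and 1 higher in Activin+HGF against NC. These are 28.6%, 0% and 14.3% of the list, against 11.4%, 8.09% and 21.5% of all genes. ADAM17 gave 4.14, 3.55 and 2.81 FPKM in NC, 10.25, 6.22 and 7.34 in Activin, and 3.64, 5.67 and 5.58 in Activin+HGF, and rose 2.13-fold in Activin against NC (log2 1.09, SE 0.21, edgeR adjusted p = 0.006). On FPKM its Activin+HGF libraries overlapped NC and lay below Activin. On TMM-scaled CPM they (59.6 to 78.9) lay above NC (33.8 to 48.3) and overlapped Activin (78.1 to 109). ADAM17 was 1.73-fold higher in Activin+HGF than in NC (log2 0.79, edgeR adjusted p = 0.0167), short of the 2-fold minimum. ADAM10 gave 8.34, 6.13 and 7.7 FPKM in NC, 5.7, 2.63 and 5.09 in Activin, and 4.4, 4.86 and 4.79 in Activin+HGF. It was 1.78-fold lower in Activin than in NC (log2 -0.83, adjusted p = 0.0285), short of the 2-fold minimum. The Activin+HGF libraries of ADAM10 overlapped those of Activin on FPKM. On CPM they lay above them, at 99.7 to 107 against 49.2 to 90.5 (log2 0.47, edgeR adjusted p = 0.184). The ratio of ADAM17 to ADAM10 on FPKM was 0.365 to 0.579 in NC, 1.44 to 2.37 in Activin and 0.827 to 1.17 in Activin+HGF, so that the groups did not overlap. RHBDF1 rose 2.02-fold in Activin (log2 1.01, adjusted p = 0.0247) and 2.29-fold in Activin+HGF (log2 1.19, adjusted p = 0.0073), both against NC. These calls were not firm: ADAM17 came to 0.95 on the log2 scale without the 3rd NC or the 1st Activin library, and RHBDF1 lost its call in Activin without any 1 of the NC libraries or the 3rd Activin library (edgeR adjusted p = 0.063 to 0.0873) and in Activin+HGF with library totals (0.90) or without the 1st Activin+HGF library (0.90).

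All 28 adaptors and transducers downstream of the receptors were tested, and 3.57%, 3.57% and 17.9% of them were called in Activin against NC, Activin+HGF against Activin and Activin+HGF against NC, against 11.4%, 8.09% and 21.5% of all genes. In Activin against NC, GAB2, a docking protein, rose (log2 1.48, edgeR adjusted p = 0.0121) and the other 27 were not called. In Activin+HGF against Activin, PIK3R3, a regulatory subunit of PI3K, fell (log2 -1.09, adjusted p = 0.0323). In Activin+HGF against NC, 3 were higher and 2 lower, namely GAB2 (1.87), MAP2K1, which encodes the kinase MEK1 (1.29), PIK3R2 (1.09), PIK3R3 (-1.44) and SOS1, which activates RAS (-1.17). PIK3R3 lost its call against Activin when 7 of the 9 libraries were left out in turn (edgeR adjusted p = 0.05 to 0.0921), and GAB2 in Activin without the 1st NC library (adjusted p = 0.0516). In Activin+HGF against NC, SOS1 was lost without the 3rd NC or the 1st Activin+HGF library (adjusted p = 0.0517 and 0.0511), and PIK3R2 fell under 2-fold with library totals (0.84) and without any 1 of 4 libraries, as did MAP2K1 with limma on FPKM (0.98 and 0.95). The median log2 fold change of the list was 0.14, 0.09 and 0.14 in these comparisons in turn.

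Of 13 genes whose products restrain the receptors, ERRFI1 was called higher in Activin against NC, none was called in Activin+HGF against Activin, and ERRFI1 and LRIG1 were called higher in Activin+HGF against NC. These are 7.69%, 0% and 15.4% of the list, each below the share of all genes (11.4%, 8.09% and 21.5%). ERRFI1 encodes MIG6, which binds and inhibits the kinase domain of EGFR. It gave 117.14, 107.99 and 118.32 FPKM in NC, 459.07, 335.56 and 469.91 in Activin, and 147.61, 288.55 and 304.92 in Activin+HGF. It rose 3.46-fold in Activin (log2 1.79, SE 0.21, edgeR adjusted p = 0.000445) and 2.61-fold in Activin+HGF (log2 1.38, adjusted p = 0.000992), and every treated library was above every NC library. LRIG1 was 2.06-fold higher in Activin+HGF than in NC (log2 1.04, adjusted p = 0.00236), and came under 2-fold with library totals (0.77) and without the 1st or the 2nd NC library (0.98 and 0.96).

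The list of ERK target genes, which includes immediate-early genes and feedback phosphatases among others, had the largest share of called genes among the pathway lists. In Activin against NC, 8 of 15 were called higher, none lower, and 7 were not called. This made 53.3% called, against 11.4% of all tested genes, with a median log2 fold change of 1.11. The 5 largest were EGR1 (2.99, edgeR adjusted p = 0.000211), DUSP5 (2.70, adjusted p = 2.73e-05), FOSL1 (2.27, adjusted p = 0.000549), IER3 (1.58, adjusted p = 0.000424) and FOS (1.52, adjusted p = 0.0149), the last of which lost its call without the 2nd NC library (adjusted p = 0.0558). DUSP4 and PHLDA1, also among the 8, lost their calls without the 2nd Activin library (log2 0.95 and 0.86), and PHLDA1 without any 1 of the NC libraries as well (adjusted p = 0.0502 to 0.0694). EGR1 stood at 15.97 to 26.32 FPKM in NC and at 145.5 to 200.1 in Activin. In Activin+HGF against Activin, FOS alone of the 15 was called (log2 2.25, edgeR adjusted p = 0.00676), or 6.67% against 8.09% of all genes. FOS stood at 4.64 to 6.66 FPKM in Activin and 11.88 to 28.59 in Activin+HGF. In Activin+HGF against NC, 8 of 15 were called higher and none lower, or 53.3% against 21.5% of all genes. The largest were FOS (3.77), EGR1 (3.63), FOSL1 (3.04), DUSP5 (3.02) and IER3 (2.33). PHLDA1, also among these 8, came under 2-fold with library totals (0.94) and with limma on FPKM (0.84 and 0.83). The ERK target genes respond to many signals besides the ERBB receptors, and the source of the signal was not measured.

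Over all 5 pathway lists, 72 genes of which 69 were tested, 12 were called higher and 1 lower in Activin against NC (18.8%, against 11.4% of all genes), 1 higher and 1 lower in Activin+HGF against Activin (2.9%, against 8.09%) and 14 higher and 3 lower in Activin+HGF against NC (24.6%, against 21.5%). In the comparisons with Activin+HGF these shares were below or close to those of all genes.

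**Figure D5:**
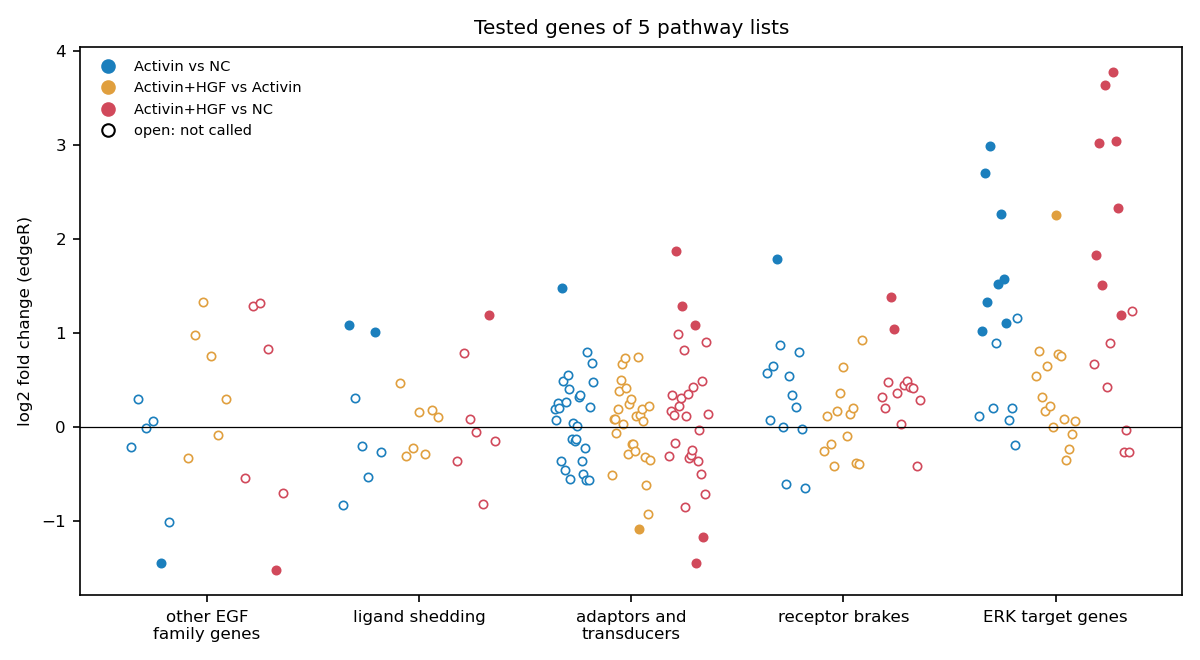
Log2 fold change by edgeR (vertical axis) of each tested gene in the 5 pathway lists (horizontal axis), coloured by comparison, with filled points for called genes and open points for the rest. The ERK target genes hold 8 filled points in each of the comparisons with NC, whereas the adaptors and receptor brakes lie mostly within a 2-fold difference of 0.

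For each member the genes with the most similar profile were sought among 11480 tested genes with a symbol and a mean of at least 1 FPKM, by the root mean square difference of log2 CPM over the 9 libraries after removing each gene's mean. For EREG they were the antisense gene DLGAP1-AS2 (0.13), BTC (0.16) and C19orf54 (0.21), against an SD of EREG itself of 0.67, so that BTC was the second closest of all these genes. For BTC they were BORCS7 (0.14), DLGAP1-AS2 (0.15) and EREG (0.16). For AREG they were PPP2R5B (0.09), NGFR (0.12) and AARS1 (0.12), and no member of the family was among them. HBEGF was closest to RGS16 (0.19), the pseudogene TPT1P9 (0.21) and BAMBI (0.23), and TGFA to VPS37C (0.11), BRSK1 (0.12) and NCKAP5L (0.12). Among the receptors the SD was 0.48 for EGFR, 0.22 for ERBB2 and 0.31 for ERBB3. Their closest profiles were TMEM87B, HOMER1 and ZNF562 for EGFR, PLXNB2, RAB35 and AP1B1 for ERBB2, and NOTCH2, TET3 and DGLUCY for ERBB3, at 0.06 to 0.16. These distances rest on 9 libraries that share 3 treatments and are a description of likeness only.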

How the data were processed

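Total RNA from HCT116 cells was depleted of ribosomal RNA and sequenced as paired-end libraries, 3 for each of NC, Activin and Activin+HGF, grouped as in the labels. The submitters' processing notes name cutadapt 1.9, HISAT2 2.0.4 and StringTie 1.3.4d, and the genome build and strand setting of counting are not given in the sources used here. The authors deposited raw counts per gene, not normalized, and FPKM, fragments per unit of transcript length and depth. In the range of 1 to 40, values divisible by 4 made up 35% of the counts where an even spread would give 25%, so low counts may not each stand for 1 tallied read.

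Counts were tested with edgeR 4.0.16 (R 4.3.3): low-count filter, TMM scaling, 1 quasi-likelihood fit over the 9 libraries without a replicate term, 20988 of 33861 genes tested, Benjamini-Hochberg adjustment over all of them, and a call at adjusted p under 0.05 with a fold of at least 2. Levels are FPKM, or CPM after TMM. Single ratios were tested by exact permutation, 2-sided. The alternatives were library totals, RLE scaling, DESeq2 1.42.0, limma 3.58.1 on log2(FPKM + 0.1) and log2(FPKM + 1), and other filters and thresholds. Further alternatives were only the 2 groups compared, counts divided by 4, a replicate block and each library left out. Settings for the ratios were added after seeing the data. The scripts were tested on simulated counts.

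The members and gene lists were chosen with earlier results of these data known. Named were all 8 members, up to 5 called genes per list and comparison by absolute log2 fold change, the 3 closest profiles for each member, and, after their values were seen, ADAM10 and the neighbours on chromosome 4. Same-numbered libraries deviated together with correlations of -0.0606 to 0.0882 and were not treated as pairs. Promoter windows are from RefSeq on GRCh38.p14, where 7 of the 8 members had an entry. Totals of 57453977 to 77016167 counts per library set the counting precision.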

Additional observations from a re-analysis of the deposited data

How the results depend on the processing

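The limits lie in 3 libraries per group, 2 libraries that stand apart, scaling in the comparisons with Activin+HGF, and depth for low genes such as BTC in Activin+HGF and NRG2. Of 456 pairings of a member fold change and an alternative, 436 kept direction and call, 4 lost the call, 4 gained it and 12 turned sign. The cause was not tested for any of these. The sign turned for AREG in Activin+HGF against Activin with library totals (-0.22), with limma on log2(FPKM + 0.1) (-0.26) and log2(FPKM + 1) (-0.26), and over the fits that left out 1 library, where values ran from -0.0354 (without Activin 1) and -0.02394 (without Activin 3) to 0.26. It turned for ERBB2 in Activin against NC (-0.37 to 0.11 with 1 library left out, with 0.03 and 0.11 without the 1st and 3rd Activin libraries) and in Activin+HGF against Activin (-0.25 to 0.27, with 0.27 and 0.05 without Activin 2 and Activin+HGF 1). It also turned for TGFA in Activin+HGF against Activin (-0.28 to 0.008356) and EGFR in Activin+HGF against NC (-0.28 to 0.22).

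Genes called over the whole table numbered 2394, 1697 and 4519 in Activin against NC, Activin+HGF against Activin and Activin+HGF against NC. With limma on log2(FPKM + 1) they were 1199, 699 and 2238, with no minimum fold 3776 and 2698 in the first and second, and with adjusted p under 0.01 1421, 452 and 2973. With only the 2 groups compared, the second count was 677, and with 1 library left out it ran from 606 (without Activin 1) to 2418 (without Activin 2), with 866 without Activin 3 and 1079 without Activin+HGF 1. Called members went from 2 to 1 at adjusted p under 0.01 in Activin+HGF against Activin, and from 3 to 5 without a minimum fold in Activin+HGF against NC. Called pathway genes (13, 2 and 17) became 22, 7 and 26 without a minimum fold, 8 and 1 in the first and second at adjusted p under 0.01, 1 and 10 with limma on log2(FPKM + 1) in the comparisons with Activin+HGF, and in Activin+HGF against Activin 1 with no low-count filter, 1 with only the 2 groups and 1 to 4 with 1 library left out. Of 32 called pathway results, 15 were called under every alternative, 17 were lost in at least 1 and none turned sign; limma on log2(FPKM + 1) ended calls of NRG2, ADAM17, RHBDF1, GAB2, PIK3R3, MAP2K1, PIK3R2, LRIG1 and PHLDA1. With the replicate number as a block, calls over all genes were 2218, 1366 and 4222, called members 3, 2 and 3, and the sign of ERBB2 in Activin+HGF against Activin turned (0.02023). The block changed no other member call, and same-numbered libraries did not vary together.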
